A study of Homo sapiens with 12 samples.

Results

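The comparison described here set H211 against H82, 2 established human small cell lung cancer lines, after both had been grown with ORY-1001. Its members were the 3 H211 and the 3 H82 libraries labelled as treated, 6 of the 12 libraries of the series, chosen by those labels and by no measured value. The remaining 6 libraries, 3 of each line grown with vehicle (labelled PBS), were used as the reference. ORY-1001 inhibits the histone demethylase LSD1, which KDM1A encodes, and was given at 1 µM for 7 days by the sample labels or 10 days by the treatment protocol, a difference that was not settled here. All 4 groups were labelled wild type, shared one culture medium and were measured by sequencing of oligo(dT)-selected RNA. Each line stands alone for its tumour subtype, so a difference between subtypes and a difference between these particular cell lines cannot be told apart. The labels do not say that replicates were separate cultures, so the p-values cover only the spread between these libraries, which may be technical.

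Small cell lung cancers are commonly sorted by the transcription factor that dominates them. POU2F3 marks a form that resembles tuft cells, the chemosensory cells of the airway and gut, and lacks most neuroendocrine genes, whereas NEUROD1, a basic helix-loop-helix factor of neurons, marks a neuroendocrine form. LSD1 removes methyl groups from histone H3 as part of the CoREST complex, which SNAG-domain factors such as INSM1, GFI1 and GFI1B bring to DNA. PSMB9 is a catalytic subunit of the immunoproteasome, and TAP2 is one chain of the transporter that carries its peptides to MHC class I molecules.

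Levels below are the deposited values, a TPM that seems to be rescaled from library to library, and are therefore per transcript length. A line difference is H211 minus H82 on the log2(level + 1) scale, so a positive value means more in H211 and the change of a gene with low values is understated. Genes were tested if they reached 1 in at least 3 of the 12 libraries, which held for 15456 of 56508 symbols. Of these, 11634 reached 1 in 3 libraries of each line, and 3655 passed through 1 line only and so largely had to differ. A gene was called at an adjusted p under 0.05 in limma, and the change of a line difference was its value between treated libraries minus that between controls, tested as an interaction.

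Between treated H211 and treated H82, 12400 genes were called (80.2% of those tested), 6129 higher in H211 (39.7%) and 6271 higher in H82 (40.6%). For 12527 genes (81%) the treated libraries of the lines did not overlap. Of the called genes, 5623 lay at least 2-fold apart (36.4% of those tested). Between the controls 12442 genes were called (80.5%). In the same direction in both conditions stood 10705 genes, which is 86% of the control calls and 86.3% of the treated calls. The treated and the control comparison share no library. Across genes, the treated line difference followed the control difference with r = 0.93 and a slope of 0.895, a description over genes, which do not count as independent samples. The first principal component separated the lines and held 86.5% of the variance, and the second, with 4.69%, separated treated from control libraries within each line.

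The lines stood slightly closer together with ORY-1001. The root mean square line difference over all tested genes was 1.411 between treated and 1.467 between control libraries, a change of -0.0554 or -3.78% (two-sided exact permutation of treatment labels within each line, p = 0.005, the smallest that 400 arrangements can give). The median absolute line difference, 0.7338 against 0.7549, did not pass the same test (exact permutation p = 0.055). These permutations assume no treatment effect in either line, yet such effects were called in both. Neither p therefore tests by itself whether the distance was unchanged. Correlations between a treated H211 and a treated H82 library ran from 0.8043 to 0.8069, above those between control libraries of the 2 lines, 0.7861 to 0.7928, and libraries of one group correlated at 0.9881 or more.

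Line differences moved both ways. The interaction was called for 4956 genes (32.1%). A line difference narrowed, that is, was called between controls and became smaller, for 2628 genes (17%). It widened, that is, was called between treated libraries and became larger, for 2012 (13%). Smaller and larger refer to absolute size, so a widened gene may have had an uncalled control difference of the other sign. For 308 genes (1.99%) the difference reversed, with a call in opposite directions in the 2 conditions. Another 7352 genes (47.6%) were called in the same direction in both conditions with no call for the interaction, which does not show that their difference was unchanged. Of the narrowed genes, 671 were no longer called between treated libraries, and of the widened genes 616 had not been called between controls. The change reached 2-fold in 431 narrowed and 312 widened genes.

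The movement was mostly on the H82 side. Among narrowed genes, a treatment effect was called in H82 alone for 1655 (1082 fell and 573 rose), in H211 alone for 447 and in both lines for 378. Among widened genes it was called in H82 alone for 1253, in H211 alone for 354 and in both for 284. Over all tested genes, ORY-1001 against control was called for 43% in H82 and for 18.6% in H211. The most extreme line differences were fewer with treatment: 113 genes lay at least 5 log2 units apart against 152 between controls, and the 91 shared genes are 80.5% of the treated and 59.9% of the control list.

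**Figure D1:**
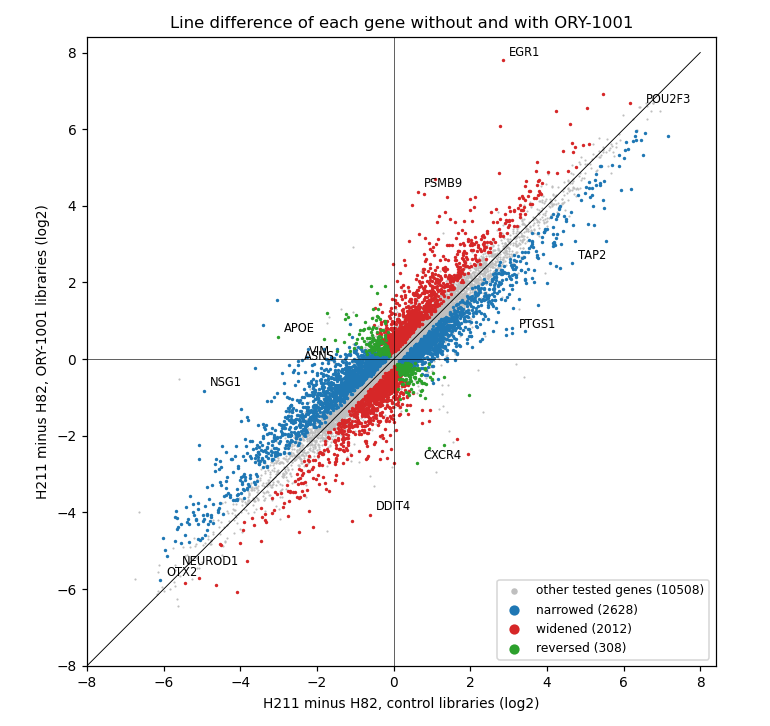
Each point is 1 of the 15456 tested genes, with the H211 minus H82 difference between control libraries on the x axis and between ORY-1001 libraries on the y axis, both log2(level + 1); the diagonal marks equal differences. Most genes lie along the diagonal (r = 0.93), and the 2628 narrowed genes lie between it and the x axis or just across that axis. The 2012 widened genes lie beyond the diagonal or, where an uncalled control difference had the other sign, across the x axis. The 308 reversed genes sit in the upper left and lower right quadrants.

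Blood-cell transcripts differed between libraries of one group and between groups. The summed level of 12 myeloid markers was 35.91, 40.61 and 30.69 in treated H82 but 2.905, 3.833 and 2.789 in H82 controls, so every treated H82 library lay above every H82 control. In H211 it was 0.9354, 1.067 and 35.45 with treatment and 29.45, 52.4 and 1.708 in controls, which overlap. The 11 erythroid markers summed to 3.931, 2.837 and 127.6 in treated H82, 54.46, 61.2 and 47.53 in H82 controls, 50.8, 38.61 and 0.3056 in treated H211 and 118.2, 105.5 and 45.78 in H211 controls. The part of these transcripts in the line differences was not tested. None of the 6 endothelial markers was high enough to be tested.

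One alternative left out 4 libraries, the third treated library of each line and the first and second H211 controls. Narrowed genes then numbered 1570, widened 1234 and reversed 230, of which 1371, 1030 and 171 had the same class with all libraries. It leaves 1 H211 control library, which is assumed to vary like the libraries of the other groups, and fewer libraries give fewer calls. Nor does it remove the blood transcripts: myeloid sums in the remaining treated libraries are 35.91 and 40.61 in H82 against 0.9354 and 1.067 in H211. The 4 libraries were chosen by their blood transcripts, so calls of blood markers in that fit follow largely from the choice. With all libraries, 2 of 8 tested myeloid and 0 of 5 erythroid markers were called between treated lines, against 80.2% of all tested genes.

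The factors that name the subtypes kept the lines apart. POU2F3 (chr11:120236640-120319944, plus strand, protein coding; positions here are from GENCODE release 29 on GRCh38) measured 246, 263 and 246 in treated H211 and 2.06, 1.27 and 1.66 in treated H82. The treated groups did not overlap, and the line difference was 6.58 (SE 0.11, limma adjusted p = 6.47e-13) against 6.43 between controls. Its change, 0.15 with a 95% interval from -0.20 to 0.50, did not pass (adjusted p = 0.513).

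NEUROD1 (chr2:181673088-181680876, minus strand, protein coding) was the mirror image, at 2.04, 1.72 and 1.95 in treated H211 and 134, 133 and 123 in treated H82. The line difference was -5.50 (SE 0.086, limma adjusted p = 3.29e-13) with treatment and -5.70 without. Its change of 0.20 did not pass (adjusted p = 0.243), though without the second H211 control library it did, at 0.31 (adjusted p = 0.0248). KDM1A, the drug's target gene, was alike in all groups, at 184, 188 and 193 in treated H211 and 181, 195 and 195 in treated H82, which overlap (line difference -0.016, adjusted p = 0.706).

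**Figure D2:**
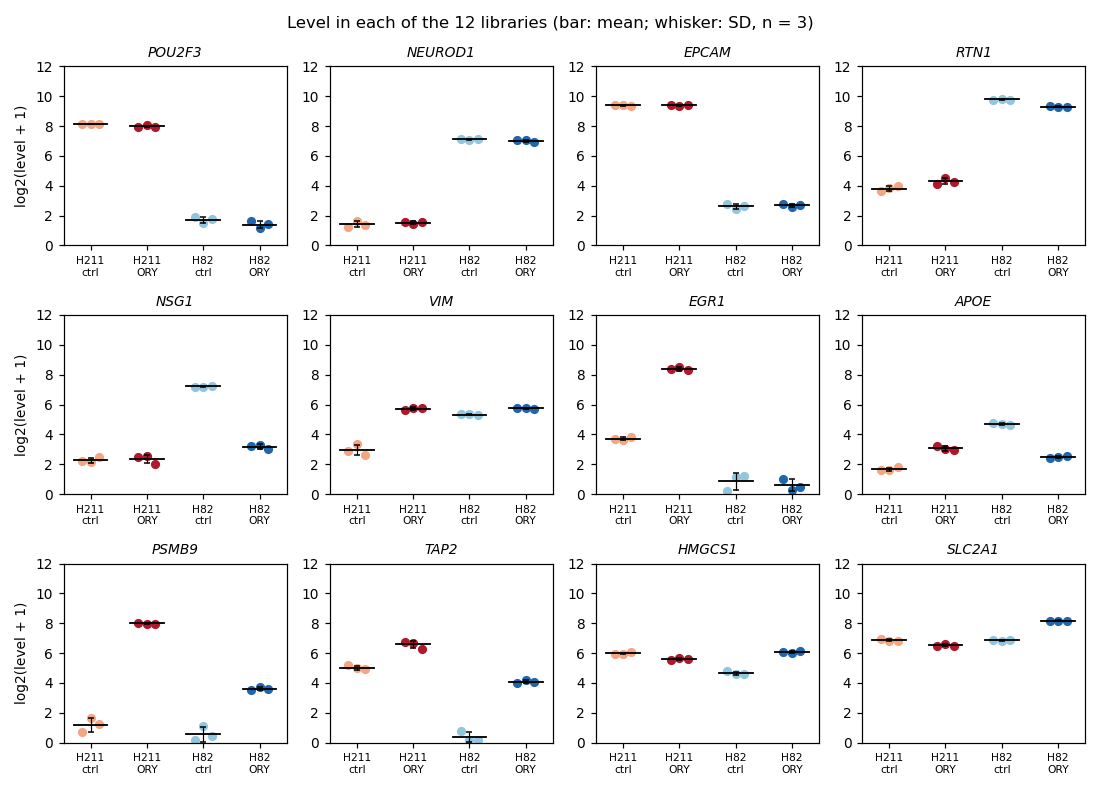
Points are single libraries, as log2(level + 1) on the y axis, for 12 genes in H211 and H82 with vehicle (ctrl) or ORY-1001 (ORY); bars are means and whiskers SD over 3 libraries. POU2F3, NEUROD1, EPCAM and RTN1 hold the lines apart in both conditions, NSG1 and VIM bring the treated lines together, EGR1 and PSMB9 part them, and APOE and HMGCS1 change the order of the lines.

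The widest gap between the treated lines was that of EGR1 on the H211 side and of SLC38A5 on the H82 side. Among genes with a treated mean of 20 or more in the higher line and no overlap, the 10 largest differences each way were taken. Of these 20, 15 were called in both conditions with no called change and 5 widened, against 47.6% and 13% of all tested genes. A choice by the treated difference favours widened over narrowed genes, so this split does not measure persistence. On the H211 side the 10 genes were, in descending order, EGR1, CBLN2, MSTN, EPCAM, AVIL, C11orf53, ASCL2, GPX2, MAL2 and POU2F3. AVIL, an actin-binding protein of tuft cells, had the same line difference with treatment, 6.68, as without, 6.67, and EPCAM, an epithelial adhesion molecule, gave 6.69 and 6.77. C11orf53, which encodes a coactivator of POU2F3, stood at 312 ± 2.29 (SD, n = 3) in treated H211 and 2.1 ± 0.525 in treated H82. MSTN, the muscle growth inhibitor myostatin, widened by 0.53 in the full fit but not at a pseudocount of 0.1 (adjusted p = 0.0583) or without the 4 libraries (adjusted p = 0.263).

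On the H82 side the order was SLC38A5, NPS, GAGE2A, GNGT1, GAGE12C, GAGE1, GAGE13, GAGE12F, PAGE1 and GSG1. GAGE and PAGE genes encode cancer-testis antigens of the X chromosome and are near-identical copies, so the level of any single copy is uncertain; GAGE2A was at 7288, 6418 and 6312 in treated H82. SLC38A5, an amino acid transporter, measured 1959, 1849 and 1859 in treated H82 and 18.2, 15 and 33.2 in treated H211, with a line difference of -6.43. GNGT1, a transducin gamma subunit, widened toward H82 by -2.01 (adjusted p = 0.00214), as its level there went from 67.5 to 204. These extremes lie near a floor: among 1367 genes at 100 or more in treated H82, the lowest share of that level found in treated H211 above 0 was 0.994%, and among 1416 genes at 100 or more in treated H211 it was 0.163% in treated H82.

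Tuft-cell genes mostly stayed on the H211 side. All 8 tested tuft-cell factors and coactivators were higher in treated H211 (background 39.7%), with a median line difference of 4.17 against 4.98 between controls. A member that passed the filter through H211 alone largely had to be higher there, and across the alternative settings 2 to 8 were called. In the full fit 3 of the 8 narrowed and 1 widened, against 17% and 13% of all tested genes. TRPM5, the cation channel of taste signalling, measured 31.6, 32.6 and 31.1 in treated H211 and 0.274, 0.181 and 0.246 in treated H82. Its line difference of 4.73 was 4.92 between controls. The change did not pass (adjusted p = 0.382), but passed at a pseudocount of 5 (-0.219, adjusted p = 0.0195). GNAT3, the taste G protein gustducin, gave 5.53 and 5.47, and GNG13, its gamma subunit, gave 6.38 and 5.99.

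Some tuft-cell genes lost part of their lead. SPIB, an ETS factor, fell from 60.5, 57.7 and 53.9 in H211 controls to 10.9, 10.3 and 12.5 in treated H211 and lay at 0.344, 0.128 and 0.968 in treated H82. It narrowed by -2.45 (SE 0.24, limma adjusted p = 3.11e-05) to 3.08, and the treated groups still did not overlap. PTGS1, the cyclooxygenase of prostanoid synthesis, went from 12.1, 12.2 and 10.4 in H211 controls to 0.904, 0.891 and 0.97 in treated H211, with 0.196, 0.1 and 0.297 in treated H82, and narrowed from 3.10 to 0.69 (adjusted p of the change 4.86e-07). Smaller changes were called for the kinase gene BMX (6.44 to 5.71), the taste receptor TAS1R3 (5.19 to 4.0) and the phospholipase PLCG2 (6.05 to 5.67), the last of them lost at a pseudocount of 0.1 (adjusted p = 0.269) and without the 4 libraries (adjusted p = 0.232). GFI1B, a SNAG-domain repressor of the tuft-cell list, widened from 3.35 to 4.25 (adjusted p = 0.00673), but not at a pseudocount of 0.1 (adjusted p = 0.119). CHAT, which makes acetylcholine, is a tuft-cell product that was higher in H82, and it widened from -1.10 to -2.51. Over the 16 tested tuft-cell effectors 13 were higher in treated H211, and 4 narrowed and 2 widened, against 17% and 13% of all tested genes. The same limit of the filter holds for them, and across the alternatives 7 to 16 were called in either direction.

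Epithelial genes followed the same side. Of 16 tested junction and keratin genes, 15 were higher in treated H211 (background 39.7%) and none in treated H82. Their median line difference was 3.48 (3.96 between controls). A member that passed the filter through H211 alone largely had to be higher there, and across the alternatives 7 to 15 were called. In the full fit 5 narrowed and 3 widened, against 17% and 13% of all tested genes. With the 4 libraries left out, 1 narrowed and 1 widened. KRT19, a keratin of simple epithelia, measured 174, 172 and 169 in treated H211 and 1.02, 0.776 and 1.1 in treated H82. It widened from 4.25 to 6.46 (adjusted p = 5.01e-07), with a rise in H211 and a fall in H82. CDH1, the epithelial cadherin, kept a difference of 5.03 against 5.60 between controls, a change that did not pass (adjusted p = 0.0522) but passed at a pseudocount of 5 (-0.55, adjusted p = 0.00193). ELF3, an epithelial ETS factor, narrowed from 5.47 to 4.16, though not without the 4 libraries (adjusted p = 0.0784).

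The list with the most narrowed members was that of neuroendocrine granule and neuronal genes. Of 29 tested granule and neuronal genes 21 narrowed, 1 widened and 1 reversed, against 17%, 13% and 1.99% of all tested genes, and 22 were still higher in treated H82 (background 40.6%). Their median line difference was -1.5 with treatment and -2.56 without, where over all tested genes both medians were -0.02. Genes that passed the filter through H82 alone largely had to be higher there, and across the alternatives 17 to 27 were called in either direction. Across the alternative settings 13 to 22 narrowed, and 19 did so without the 4 libraries. In bulk RNA, fewer cells of a type and less RNA per cell cannot be told apart.

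CHGA, the core protein of secretory granules, measured 99.1, 97.2 and 98 in H82 controls and 36.8, 35.9 and 37.5 in treated H82. In treated H211 it measured 1.9, 2.44 and 2.21. The treated lines did not overlap, and the difference went from -5.31 to -3.57 (change 1.74, SE 0.27, limma adjusted p = 0.000567). The same shape, with most of the movement in H82, held for the granule protein SCG3 (-4.53 to -3.21), the carboxypeptidase CPE (-2.82 to -1.69), the tubulin regulator STMN2 (-4.49 to -2.26) and the reticulon RTN1 (-5.97 to -4.98).

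NSG1, an endosomal protein of neurons, showed the largest narrowing among genes with a mean of at least 10 in some group. It was at 146, 146 and 151 in H82 controls, 8.26, 8.91 and 7.11 in treated H82 and 4.55, 4.92 and 3.12 in treated H211. The treated H82 libraries were still all above the treated H211 ones, yet the line difference had gone from -4.95 to -0.82 (change 4.13, 95% interval 3.71 to 4.55, adjusted p = 1.14e-07). SEZ6, a synaptic surface protein, went further and ended with a difference of -0.055 (adjusted p = 0.847), its treated groups at 2.08, 0.73 and 0.619 in H211 and 0.901, 1.48 and 1.05 in H82, which overlap. SYP, the vesicle protein synaptophysin, narrowed little, from -5.34 to -4.77, and not without the 4 libraries (adjusted p = 0.137). CADPS, a priming factor of granule release, narrowed by 0.70 (adjusted p = 0.0364), but not without the first H211 control (adjusted p = 0.0809) or the first H82 control (adjusted p = 0.0633). NCAM1, the neural adhesion molecule CD56, was the member that reversed: H82 led in controls (-0.22) and H211 led with treatment, at 73.8, 68.9 and 68.8 against 35.3, 38.5 and 34.6 (0.95, adjusted p = 5.58e-09).

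Of 19 tested synapse and ion channel genes 10 narrowed, 2 widened and 1 reversed, against 17%, 13% and 1.99% of all tested genes. Their median difference was -0.51 with treatment and -1.41 without. Where each line had to reach 1 in 3 libraries, which tested fewer genes, 3 narrowed. The complexins CPLX3 and CPLX1, which clamp vesicle fusion, were among the 8 largest narrowings. CPLX3 went from 42.7, 42 and 42.1 in H82 controls to 5.8, 5.13 and 5.17 in treated H82 and was at 0.482, 0.519 and 0.0836 in treated H211. Its line difference moved from -5.08 to -2.24, that of CPLX1 from -5.08 to -2.61, and that of CHRM4, a muscarinic receptor, from -3.97 to -1.31.

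Among 17 tested neuroendocrine lineage factors 9 narrowed and 3 widened, against 17% and 13% of all tested genes. Of these factors 12 were higher in treated H82 (background 40.6%). The limit of the filter holds for this count too, and across the alternatives 12 to 17 factors were called in either direction. With those 4 libraries left out, 5 narrowed and 3 widened. OTX2, a homeobox factor of brain and retina, kept nearly all of its gap, at 934, 904 and 890.3 in treated H82 and 15.3, 16.9 and 15 in treated H211. Its narrowing of 0.33 (adjusted p = 0.0373) was lost without the filter on low values (adjusted p = 0.0819). NEUROD4, a neuronal helix-loop-helix factor, narrowed from -2.49 to -0.56, and INSM1, which recruits LSD1, from -1.59 to -0.90, the latter not without the 4 libraries (adjusted p = 0.087). Not all factors moved that way: HES6, a HES inhibitor, widened toward H82 from -0.62 to -1.40, and LHX2, a LIM homeobox factor, went from -0.49 to 1.32. MYC was higher in H82 in both conditions (-2.16 between controls, -1.60 with treatment) and narrowed by 0.57 (adjusted p = 0.00017), with 583 in treated H211 and 1767 in treated H82.

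Other narrowed genes came from outside these programs. VIM, the intermediate filament vimentin (chr10:17228259-17237593, plus strand, protein coding), rose in H211 from 6.27, 9.21 and 5.25 to 49.3, 54.1 and 53.2, to the level of treated H82 at 54, 53.5 and 50.5. The treated groups overlapped, and the line difference went from -2.38 to -0.013 (adjusted p of the treated difference 0.932, of the change 7.5e-06). PRSS56, a serine protease, fell in H82 from 12.8, 12.4 and 12.3 to 0.284, 0.285 and 0.244, and lay at 0.141, 0.103 and 0 in treated H211. RAB17, a trafficking GTPase of epithelial cells, narrowed from the H211 side, rising in H82 from 0.152, 0.117 and 0.0899 to 6.32, 5.61 and 6.19 beside 9.62, 11.3 and 11.3 in treated H211. CLIP3, a cytoplasmic linker protein, fell in H82 from a mean of 19.3 to 3.73 and overlapped treated H211.

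Of 16 tested mesenchymal genes 4 narrowed, 4 widened and 1 reversed, where all tested genes gave 17%, 13% and 1.99%, and of 17 S100 and annexin genes 5 narrowed and 2 widened. TWIST1, which represses epithelial genes, widened from 1.83 to 3.61 toward H211, and SNAI1, with a like role, from -1.23 to -2.31 toward H82. ZEB2 stayed with H82 at -3.48. ANXA1, an anti-inflammatory annexin, fell in H211 from 342, 352 and 381 to 70.4, 68.7 and 68 and stood at 2.21, 2.8 and 1.72 in treated H82, a narrowing from 6.19 to 4.44. S100A14, an epithelial calcium-binding protein, narrowed from 3.75 to 1.40.

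**Figure D3:**
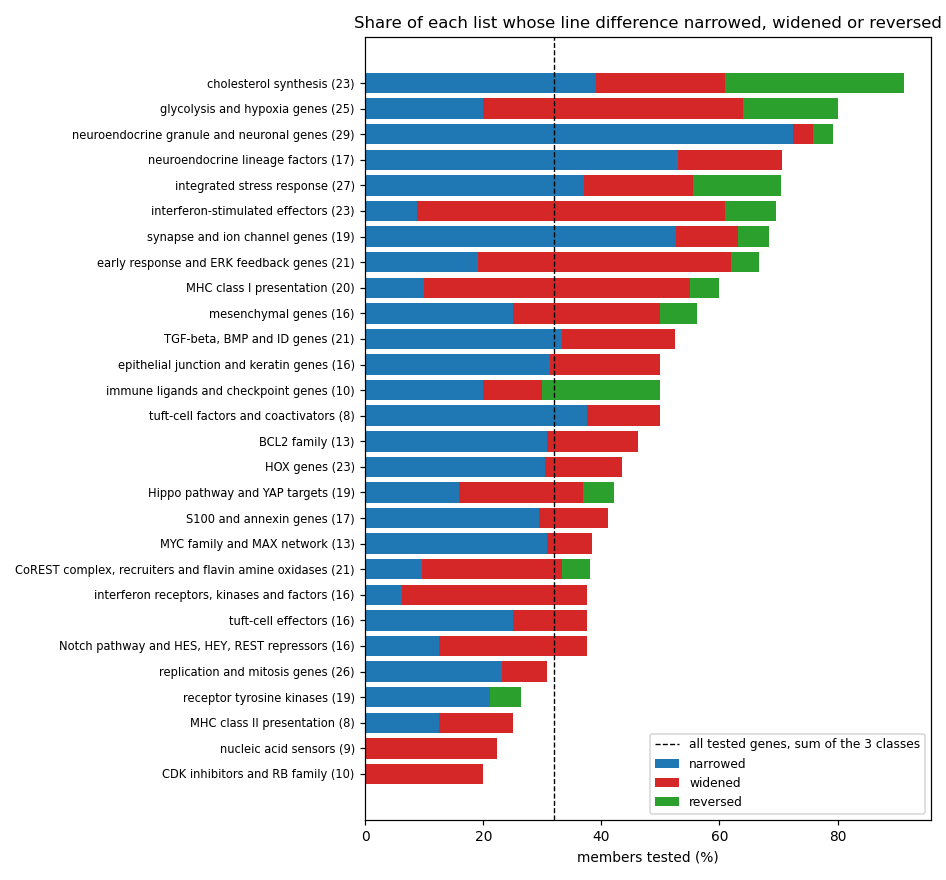
Bars give, for each list with at least 8 tested members (number in brackets; blood lists left out), the percent of members whose line difference narrowed, widened or reversed; the dashed line is the sum of these shares over all tested genes, 17%, 13% and 1.99%. Narrowing fills most of the neuroendocrine and synapse bars, widening most of the interferon, MHC class I, early response and glycolysis bars, and reversal is longest for cholesterol synthesis, 7 of 23.

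In antigen presentation, widened genes outnumbered narrowed ones. Of 20 tested genes of MHC class I presentation 9 widened, 2 narrowed and 1 reversed, against 13%, 17% and 1.99% of all tested genes. Of the 20, 14 were higher in treated H211 and 4 in treated H82 (39.7% and 40.6% of all tested genes). Their median line difference was 1.63 with treatment and 1.00 without. Without the 4 libraries 8 widened, 3 narrowed and 1 reversed, and across alternatives 4 (pseudocount 0.1) to 11 (pseudocount 5) widened. The members chosen as markers behaved differently from each other.

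PSMB9 (chr6:32844136-32859585, plus strand, protein coding) measured 261, 248 and 250.5 in treated H211 and 10.7, 12.5 and 10.9 in treated H82. In controls both lines were low, at 0.645, 2.14 and 1.33 in H211 and 0.109, 1.18 and 0.355 in H82. The treated groups were far apart while the control groups overlapped, and the line difference went from 0.63 (adjusted p = 0.034) to 4.37 (SE 0.25, limma adjusted p = 9.85e-09), a widening of 3.74 with a 95% interval from 2.98 to 4.50 (adjusted p = 2.17e-05).

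TAP2 (chr6:32821833-32838780, minus strand, protein coding) moved the other way. It was at 108, 102 and 78.2 in treated H211 and 14.9, 17.2 and 15.8 in treated H82, and in controls at 35.2, 30.7 and 29.3 in H211 and 0.702, 0.152 and 0.116 in H82. Treatment raised it in both lines, more in H82, so the groups stayed apart but the line difference narrowed from 4.65 to 2.50 (change -2.15, SE 0.23, adjusted p = 5.17e-05). TAP1, the partner chain, measured 106, 102 and 113 in treated H211 and 21.9, 21.4 and 22.1 in treated H82, with a difference of 2.25 against 1.79. Its widening of 0.45 (adjusted p = 0.0094) turned into a narrowing of -0.92 at a pseudocount of 0.1 (adjusted p = 0.011) and was lost without the 4 libraries (adjusted p = 0.208), so its direction depends on the scale.

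The 250 bases before the annotated start of PSMB9, TAP1, TAP2 and B2M are printed because these genes rose together in both lines yet differ in how their line differences moved. They come from RefSeq on GRCh38.p14, which held promoter windows for 16 of the 20 tested genes and none for POU2F3. Capitals mark matches on either strand to GAAA, any 2 bases and GAAA again, a core recognised by interferon regulatory factors, with 2 overlapping matches in TAP1 (the first of its 2 entries) and 2 in B2M, 1 in TAP2 and 0 in PSMB9. The TAP1 and PSMB9 windows face each other on opposite strands and overlap by 13 bases. The TAP1 matches thus also lie upstream of the PSMB9 start, beyond its 250 bases, so the 0 holds for this window only. This RefSeq start of PSMB9 lies within the GENCODE span given above, not at the first base of that span. Each sequence is given 5′ to 3′ on its gene's strand.
PSMB9 (chr6:32853942-32854191, plus strand): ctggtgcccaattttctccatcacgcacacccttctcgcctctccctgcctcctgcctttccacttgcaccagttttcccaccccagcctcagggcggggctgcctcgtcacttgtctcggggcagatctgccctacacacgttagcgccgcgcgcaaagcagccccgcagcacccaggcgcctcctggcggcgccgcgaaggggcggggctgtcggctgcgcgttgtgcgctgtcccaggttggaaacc
TAP1 (chr6:32853705-32853954, minus strand): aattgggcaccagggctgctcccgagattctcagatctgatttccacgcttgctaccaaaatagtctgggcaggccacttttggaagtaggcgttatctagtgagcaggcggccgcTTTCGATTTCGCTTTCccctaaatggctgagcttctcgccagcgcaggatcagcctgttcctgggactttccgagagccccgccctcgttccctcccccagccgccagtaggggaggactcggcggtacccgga
TAP2 (chr6:32838740-32838989, minus strand): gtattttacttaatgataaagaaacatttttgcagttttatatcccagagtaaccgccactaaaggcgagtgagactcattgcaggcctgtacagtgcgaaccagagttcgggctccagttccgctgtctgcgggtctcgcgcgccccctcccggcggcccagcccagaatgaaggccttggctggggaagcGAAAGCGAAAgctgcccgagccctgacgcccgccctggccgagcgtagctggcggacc
B2M (chr15:44711267-44711516, plus strand): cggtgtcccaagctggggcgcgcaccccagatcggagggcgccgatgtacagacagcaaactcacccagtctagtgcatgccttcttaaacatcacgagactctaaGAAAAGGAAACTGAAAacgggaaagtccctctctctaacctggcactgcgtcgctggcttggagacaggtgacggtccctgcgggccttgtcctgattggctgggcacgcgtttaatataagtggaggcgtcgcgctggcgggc

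Windows of 300 bases, from 250 before to 50 after the start, held this interferon regulatory factor core in 3.57% of all 35116 promoters. In promoters of tested genes, from which the list windows come, the share was 2.76%. The core was in 10 of 23 windows of MHC class I genes and in 21 of 29 windows of interferon-stimulated effectors. The octamer ATGCAAAT, which POU factors recognise, was in 1.77% of all windows and 1.38% of those of tested genes. It was in 1 of 5 windows of tuft-cell factors and 1 of 19 of tuft-cell effectors. The E-boxes CAGATG and CAGCTG were in 14.7% and 17.9% of all windows, and in 10.3% and 17.3% of those of tested genes. They were in 3 and 5 of 33 windows of neuroendocrine granule and neuronal genes. A match describes these letters only.

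HLA genes resemble each other in sequence, and since the handling of shared reads is unknown the level of any single HLA gene is uncertain. Those reported here did not share one pattern. HLA-C, a classical heavy chain, widened from 1.59 to 2.65. HLA-B was at 90.2, 83.6 and 97.6 in treated H211 and 19.5, 17.8 and 15.6 in treated H82, and its change of 1.09 did not pass (adjusted p = 0.409). Without the second H211 control library, which stood apart from its group (1.69, 16.1 and 0.406 in the 3 controls), it did, at 2.14 (adjusted p = 0.000743). That library also had the highest myeloid marker sum of all libraries, 52.4, and the part of blood transcripts in the HLA levels was not tested. HLA-E, a non-classical chain, narrowed from -2.32 to -0.34, and HLA-F, another, widened toward H82 from -0.70 to -2.58, at 6.24, 5.54 and 5.61 in treated H82 and 0, 0.297 and 0.123 in treated H211. The HLA-F change did not pass at a pseudocount of 0.1 (adjusted p = 0.16).

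B2M, the light chain of all class I molecules, rose in both lines and kept its gap. It measured 1019, 976 and 989.6 in treated H211 and 499.5, 432 and 431 in treated H82, a difference of 1.13 against 1.17 between controls, and the change of -0.04 had a 95% interval from -0.26 to 0.18. PSMB8, another immunoproteasome subunit, widened from 1.17 to 3.15 (adjusted p = 7.51e-06), though not at a pseudocount of 0.1 (0.96, adjusted p = 0.0707). The proteasome activators PSME1 and PSME2 widened from 1.82 to 3.02 and from 1.66 to 2.73, with a called rise in H211 alone. NLRC5, the transactivator of class I genes, widened from 0.99 to 1.73, but at a pseudocount of 0.1 its change was -0.79 and did not pass (adjusted p = 0.129). PSMB10 (0.16, adjusted p = 0.0529) was not called between the treated lines, though it was in several alternatives, among them a pseudocount of 5 (0.151, adjusted p = 0.0488). PSMB9, PSMB8, TAP1 and TAP2 lie next to each other on chromosome 6 and the annotated span of PSMB9 overlaps TAP1, so reads in the overlap may have been assigned to either.

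The same held for interferon-stimulated effectors. Of 23 tested, 12 widened, 2 narrowed and 2 reversed, against 13%, 17% and 1.99% of all tested genes. Of the 23, 20 were higher in treated H211 (background 39.7%), with a median line difference of 1.76 against 1.35. Members that passed the filter through 1 line alone largely had to differ, and across the alternatives 11 to 22 were called in either direction. In the fit without the 4 libraries 9 widened, 3 narrowed and 1 reversed, and 3 widened where each line had to reach 1 in 3 libraries, which tested fewer genes. UBE2L6, the enzyme that conjugates ISG15, measured 255, 249 and 224 in treated H211 and 16.9, 15 and 15.7 in treated H82. These groups did not overlap, and the difference went from 1.35 to 3.85 (adjusted p of the change 1.63e-08). IFITM3, a membrane restriction factor, widened from 0.83 to 3.17, and PARP9, an interferon-induced ADP-ribosyltransferase, from 2.13 to 4.23.

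ISG15 itself widened from 4.64 to 5.64, but not without the 4 libraries (adjusted p = 0.0714). USP18, which removes ISG15 and dampens the pathway, narrowed from 3.12 to 1.34; it rose in H82 from 2.16 to 14 and in H211 from 26.3 to 36.8. IFI27 and IFI35 reversed, from -0.99 to 0.42 and from -0.78 to 0.47, though their treated differences were lost in several alternatives, IFI27 without the 4 libraries (adjusted p = 0.0807) and IFI35 without the third treated H211 library (adjusted p = 0.0731).

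Of 16 tested interferon receptors, kinases and factors, 5 widened and 1 narrowed, against 13% and 17% of all tested genes. IRF9, a factor that carries interferon signals to DNA, widened from 1.09 to 3.01 (adjusted p = 0.00101), with 19.4, 24.5 and 24.4 in treated H211 and 1.91, 1.35 and 2.68 in treated H82, IRF1 from 2.09 to 2.99 and STAT3 from 2.02 to 3.02. JAK1, a receptor kinase, stayed with H211 at 4.19 (3.98 between controls). Among 9 tested nucleic acid sensors 2 widened (background 13%). The cytosolic DNA sensor CGAS gave 2.96 against 3.21, with no called change in the full fit. Its change passed at a pseudocount of 5 (-0.162, adjusted p = 0.0427) and without the trend in the variance prior (-0.249, adjusted p = 0.0276). IFIH1, the RNA sensor MDA5, gave a change of 0.19 that did not pass (adjusted p = 0.226) and that was -1.41 at a pseudocount of 0.1 (adjusted p = 0.00054) and 0.56 at a pseudocount of 5 (adjusted p = 7.18e-05), so no direction holds for it.

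Early response genes, which growth factor and stress signals switch on within minutes, were mostly higher in H211. Of 21 tested, 9 widened (5 to 9 across alternatives), 4 narrowed and 1 reversed, where all tested genes gave 13%, 17% and 1.99%. Of the 21, 16 were higher in treated H211 (background 39.7%), with a median line difference of 1.22 against 0.48. The limit of the filter holds for this list too, and across the alternatives 12 to 21 were called in either direction. EGR1, a zinc-finger factor (chr5:138465490-138469315, plus strand, protein coding), had the largest difference of all between the treated lines. It measured 329.9, 368 and 310 in treated H211, 1.04, 0.22 and 0.384 in treated H82, 11.7, 11.4 and 13.3 in H211 controls and 0.166, 1.24 and 1.3 in H82 controls. The line difference went from 2.85 to 7.80 (change 4.95, SE 0.35, adjusted p = 2.86e-06), and treated H82 overlapped its own controls.

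FOS, a subunit of the AP-1 factor, followed at 95, 96.8 and 105 in treated H211 and 0.501, 0.309 and 0.63 in treated H82 (2.78 to 6.08). JUN, its partner, rose in H211 and fell in H82, at 88.7, 89.3 and 90.8 against 4.58, 4.54 and 4.7, and widened from 0.48 to 4.01 (adjusted p = 6.37e-10). IER2 (0.17 to 2.25), FOSB (-0.029 to 2.48), EGR2 (0.27 to 2.58) and the phosphatase DUSP1 (0.29 to 2.45) widened as well. JUNB reversed, from -0.42 to 1.11. JUND, the AP-1 subunit that does not depend on stimulation, narrowed from -1.48 to -0.52.

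The EGR1 promoter is shown because that gene parted the treated lines most; its 250 bases before the start (RefSeq, GRCh38.p14) hold 2 CArG boxes in capitals, the site of serum response factor, a motif chosen after these values were seen.
EGR1 (chr5:138465229-138465478, plus strand): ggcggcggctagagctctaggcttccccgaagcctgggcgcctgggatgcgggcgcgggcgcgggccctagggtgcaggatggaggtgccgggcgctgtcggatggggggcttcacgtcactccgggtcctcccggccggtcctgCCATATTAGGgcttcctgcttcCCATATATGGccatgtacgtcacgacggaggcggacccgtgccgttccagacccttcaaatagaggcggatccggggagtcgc

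The CArG box was in 1.29% of all 300-base windows, in 1.11% of those of tested genes and in 3 of 26 windows of the early response list.

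**Figure D4:**
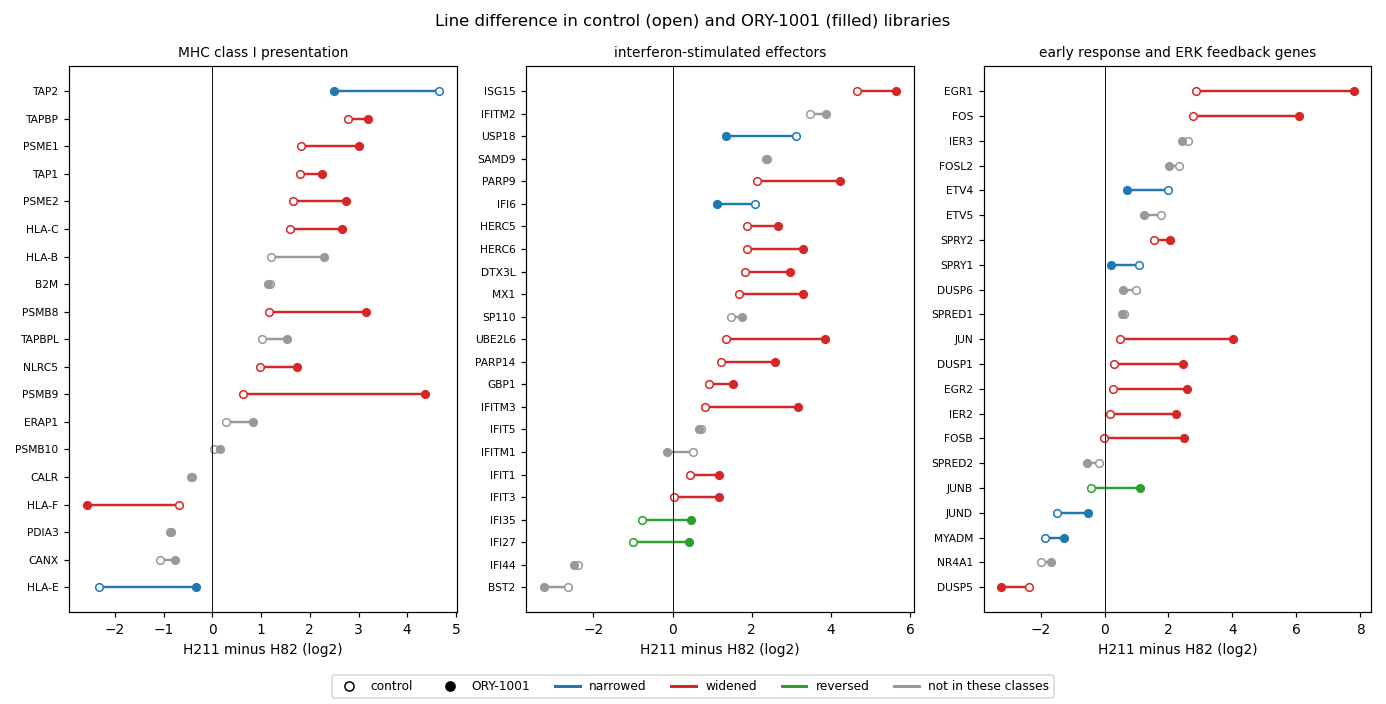
Each line joins a gene's H211 minus H82 difference between control libraries (open circle) and ORY-1001 libraries (filled circle), in log2(level + 1), for tested members of 3 lists, leaving out genes not reported here; colour gives the class. Most red lines run to the right, as for PSMB9, UBE2L6 and EGR1, while TAP2, HLA-E and USP18 narrow.

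Genes of the integrated stress response, which adapts cells to a lack of amino acids, moved in several ways. Of 27 tested 10 narrowed, 5 widened and 4 reversed, against 17%, 13% and 1.99% of all tested genes. Their median absolute line difference was 0.659 between treated and 0.696 between control libraries. By sign, the interaction was called upward for 18 (background 17.8%) and downward for 1 (background 14.3%). ASNS, asparagine synthetase, was at 618, 658 and 670.2 in H82 controls and 96.4, 89.3 and 86.1 in treated H82, beside 84.4, 86.1 and 75.1 in treated H211. The treated groups overlapped, and the difference narrowed from -2.50 to -0.15 (change 2.35, adjusted p = 1.63e-08). What was left of it (adjusted p = 0.0437) did not pass in several alternatives, among them median-of-ratios scaling (adjusted p = 0.122).

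The serine synthesis enzymes PHGDH and PSAT1 narrowed too, from -2.53 to -1.05 and from -2.06 to -1.31. The glutathione-degrading enzyme CHAC1 (-0.89 to 0.66), the leucine sensor SESN2 (-0.63 to 0.55) and the factor CEBPG (-0.55 to 0.24) reversed. ATF3, a stress factor that is also an early response gene, reversed from -0.64 to 0.82 by a rise in H211, from 12.5 to 39. ATF5, higher in H211, widened from 2.44 to 3.05. DDIT4, a stress-induced brake on mTORC1, was the member called downward and among the 8 largest widenings of all. It measured 219.5, 204 and 205 in treated H82 and 11.1, 10.9 and 12.7 in treated H211, and went from -0.62 to -4.07 (adjusted p = 6.57e-09).

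Sterol synthesis moved almost whole toward H82. In this pathway the interaction was called downward for 20 of 23 tested genes and upward for 1 (background 14.3% and 17.8%). Of the 23, 9 narrowed, 5 widened and 7 reversed, against 17%, 13% and 1.99% of all tested genes. The median line difference was -0.47 with treatment and 0.56 without. Without the 4 libraries 9 narrowed, 5 widened and 6 reversed. HMGCS1, which makes HMG-CoA, measured 45.8, 48.9 and 48.2 in treated H211 and 67.2, 63.6 and 68.3 in treated H82. In controls the order was opposite, 61.3, 60.5 and 65 in H211 and 26.4, 23.6 and 23.1 in H82, with no overlap in either condition (1.32 to -0.47, adjusted p of the change 8.69e-08).

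INSIG1, the sterol-sensing anchor of SREBP, reversed from 0.33 to -1.32, with 32.4, 30.5 and 29.7 in treated H211 and 81.1, 75.9 and 78.5 in treated H82. IDI1 (0.46 to -0.79), LSS (0.35 to -0.63) and ACAT2 (0.23 to -0.66), enzymes of the pathway, reversed as well. CYP51A1 reversed to -0.11 in the full fit, but when totals were taken without mitochondrial genes its treated difference was 0.024 (adjusted p = 0.691). FDFT1, squalene synthase, and SQLE, squalene epoxidase, stayed higher in H211 but narrowed, from 1.81 to 0.75 and from 2.07 to 1.57. FDPS and HSD17B7, already higher in H82, widened (-1.20 to -1.88 and -1.73 to -2.35).

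Glycolysis and hypoxia genes shifted the same way. The interaction was called downward for 19 of 25 and upward for 1 (background 14.3% and 17.8%). Of the 25, 11 widened, 5 narrowed and 4 reversed, against 13%, 17% and 1.99% of all tested genes. The median line difference was -0.61 with treatment and 0.01 without. SLC2A1, the glucose transporter GLUT1, was level between controls (0.014) and apart with treatment, at 88.8, 96.3 and 89.1 in H211 and 289, 279 and 289.9 in H82 (-1.63).

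The lactate exporter SLC16A3 (-0.17 to -2.57), the mitophagy receptor BNIP3 (-0.29 to -2.40), PGAM1 (-0.77 to -1.90), ENO1 (-0.20 to -0.86) and PKM (-2.22 to -2.92), 3 enzymes of lower glycolysis, widened toward H82. LDHA, lactate dehydrogenase, reversed from 0.18 to -1.04, with 839, 872 and 856 in treated H211 and 1787, 1764 and 1722 in treated H82. ALDOC reversed too, from 0.51 to -0.86. For TPI1 (0.35 to -0.14) and VEGFA (0.65 to -0.23) the treated difference did not pass when totals were taken without mitochondrial genes (adjusted p = 0.868 and 0.229). The oxygen sensor EGLN3 narrowed from 3.66 to 2.32, by a rise in H82 from 6.19 to 21.7.

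**Figure D5:**
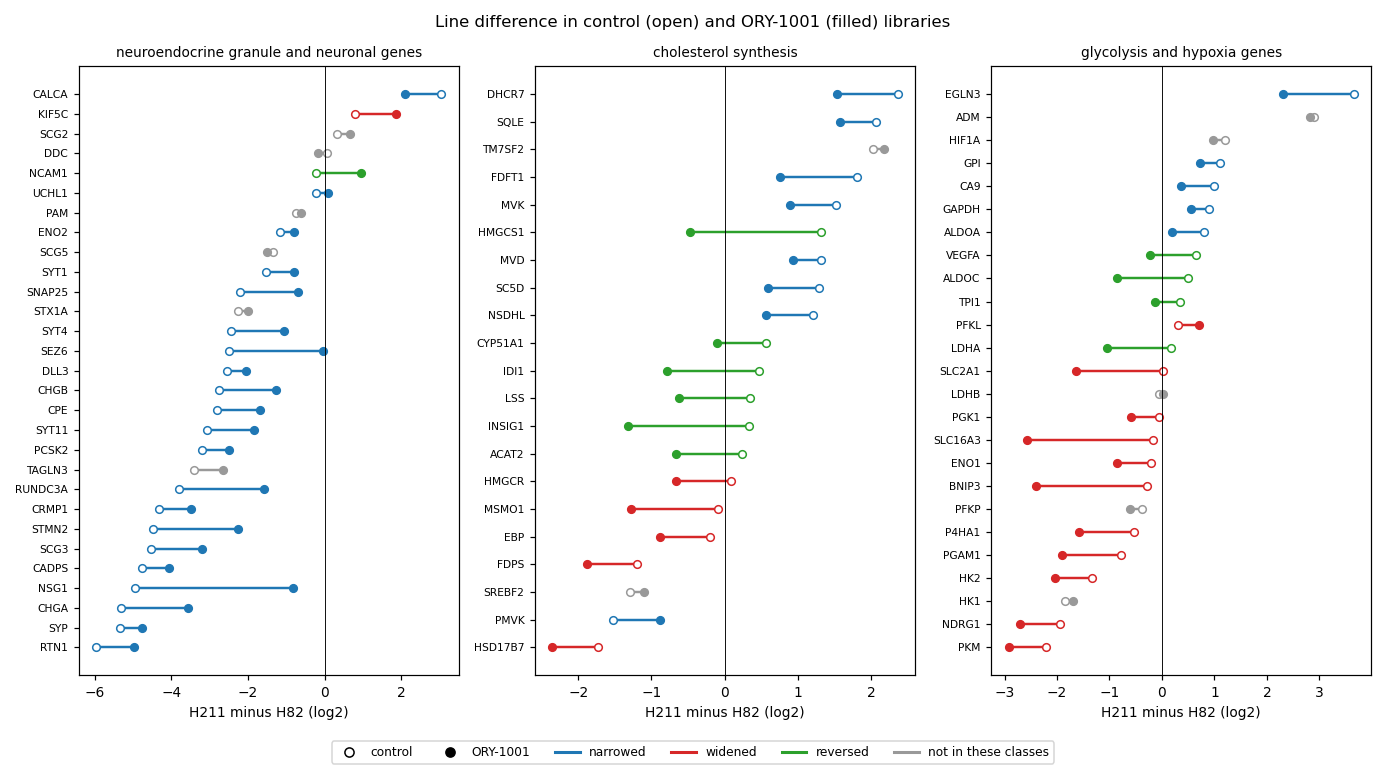
Each line joins a gene's H211 minus H82 difference between control libraries (open circle) and ORY-1001 libraries (filled circle), in log2(level + 1), for tested members of 3 lists, leaving out genes not reported here; colour gives the class. Neuroendocrine genes run rightward toward 0, whereas cholesterol and glycolysis genes run leftward, many of them across 0.

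The largest reversals outside these lists were chosen by size. APOE, the apolipoprotein of lipid transport, was at 8.54, 7.12 and 6.62 in treated H211 and 4.3, 4.68 and 4.84 in treated H82 after -3.01 between controls, and ended at 0.58 (adjusted p of the change 1.63e-08). CXCR4, a chemokine receptor, and BHLHE40, a clock and hypoxia repressor, reversed toward H82, from 0.61 to -2.72 and from 0.92 to -2.31. CXCR4 rose in H82 from 1.21, 1.24 and 1.09 to 17.4, 14.5 and 15.9. FEZ1, an axonal transport adaptor, and LARP6, a collagen RNA-binding protein, reversed toward H211, from -1.75 to 1.22 and from -0.44 to 1.73.

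Several widened genes rose in H211. DCN, the matrix proteoglycan decorin and also the fibroblast marker that widened, measured 68, 62.1 and 61.5 in treated H211 and 1.34, 2.4 and 0.914 in treated H82 (1.08 to 4.71). The 7 fibroblast markers summed to 67.13 to 74.19 in treated H211, 7.608 to 8.137 in H211 controls, 2.8 to 4.888 in treated H82 and 2.24 to 3.849 in H82 controls, of which 3 were tested, and the part of other cells in this was not tested. NPY, neuropeptide Y, stood at 19.5, 20.7 and 18.7 in treated H211 and 0.121, 0 and 0 in treated H82 (0.80 to 4.31). ID4, an inhibitor of helix-loop-helix factors, rose in H211 and fell in H82 (1.39 to 4.24), whereas ID1, its relative, rose in both and narrowed (2.57 to 1.43). YAP1, the Hippo coactivator absent from most neuroendocrine tumours, went from 0.85 to 2.61 at 6.23, 5.55 and 5.3 in treated H211, and its target CYR61 from 1.61 to 3.59.

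MPO and SRGN, myeloid granule genes, were also among the 8 genes taken as widened by the size of their change. For both, H211 had the higher mean between controls, without a call, and H82 between treated libraries (-2.47 for MPO and -2.07 for SRGN). The sign of the line difference thus changed, so the change overstates the growth of the gap. MPO measured 0.207, 0.192 and 8.57 in treated H211 and 8.71, 8.55 and 24.3 in treated H82, which overlap, after 24.3, 0.493 and 0.758 in H211 controls and 0.0849, 0.0377 and 0.0284 in H82 controls. SRGN measured 0.49, 0.51 and 16 in treated H211 and 14.4, 14.1 and 11.2 in treated H82, after 11.9, 4.9 and 0.763 in H211 controls and 0.285, 0.96 and 0.711 in H82 controls. For both genes all 3 treated H82 libraries lay above all H82 controls, while the H211 libraries were high and low in both conditions. The change was -4.42 for MPO (adjusted p = 0.039) and -3.73 for SRGN (adjusted p = 0.0388). Without the 4 libraries it was -3.75 and -3.46, but these libraries were chosen by their blood transcripts, so that fit is no independent support. Of the 12 fits that each leave out 1 library, the change did not pass in 8 for MPO and 10 for SRGN (highest adjusted p = 0.0881 and 0.0894). The part of blood transcripts in it was not tested. The hemoglobin genes HBG2, HBG1, HBA1 and HBA2 were not called between the treated lines. Without the 4 libraries, which were chosen by blood transcripts, their line differences were 4.27, 3.21, 2.59 and 1.58.

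In the Notch pathway list 4 of 16 widened and 2 narrowed, against 13% and 17% of all tested genes. The ligand DLL1 narrowed from 5.06 to 3.52 as it rose in H82, and DLL3, the neuroendocrine ligand and drug target, stayed with H82 but narrowed from -2.56 to -2.07, at 20.1, 20.7 and 22.2 in treated H211 and 91.1, 91 and 91.8 in treated H82. REST, the repressor of neuronal genes, gave 0.60 against 0.83 between controls, and HES1 gave 0.55 against 0.22, neither with a called change. Of 21 tested TGF-beta, BMP and ID genes 7 narrowed and 4 widened, against 17% and 13% of all tested genes. The ligand BMP2 was among those that widened (3.46 to 4.64). Without the 4 libraries 3 narrowed and 3 widened.

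In the CoREST list, where the drug's target acts, 5 of 21 widened, 2 narrowed and 1 reversed (without the 4 libraries 3, 1 and 0). Over all tested genes 13% widened, 17% narrowed and 1.99% reversed. GFI1 kept its H211 lead (3.73 and 3.92), CTBP1 widened from 0.54 to 1.03, and the flavin enzyme MAOA narrowed from -3.75 to -2.12. Of 19 tested receptor tyrosine kinases 13 were called alike in both conditions with no called change, against 47.6% of all tested genes. MET, the receptor of hepatocyte growth factor, gave 4.48 against 4.54, and ERBB3 gave 3.68 against 4.06. The ERBB3 change passed at a pseudocount of 5 (-0.45, adjusted p = 0.0152). Among replication and mitosis genes 14 of 26 were called alike with no called change, 6 narrowed and 2 widened. All tested genes gave 47.6%, 17% and 13%. AURKB, the mitotic kinase, gave -2.14 against -2.25.

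BCL2, which blocks apoptosis, measured 68.6, 73 and 62.3 in treated H211 and 0.826, 0.646 and 0.997 in treated H82, and narrowed from 6.01 to 5.24, though not without the 4 libraries (adjusted p = 0.127). The cell-cycle inhibitor CDKN1B (2.25 to 2.49, widened) and RB1 (1.79) were higher in treated H211. The CDKN1B change did not pass in several alternatives, among them quantile normalization (adjusted p = 0.198) and a pseudocount of 5 (adjusted p = 0.0834). Of 23 tested HOX genes, which pattern the body axis, 12 persisted, 7 narrowed and 3 widened, against 47.6%, 17% and 13% of all tested genes. Fewer narrowed and fewer widened without the 4 libraries, where fewer libraries give fewer calls. HOXC5 stood at 3.51 against 3.42, and HOXA3 narrowed from 3.33 to 2.33. SLFN11, a schlafen gene tied to response to DNA damage, was low in both treated lines, at 0.178, 0.57 and 0.595 in H211 and 1.16, 1.23 and 1.5 in H82, and its change of -0.96 did not pass without the 4 libraries (adjusted p = 0.0707).

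Among genes the immune system reads on other cells, NECTIN2, an adhesion ligand of lymphocyte receptors, stayed with H82 and narrowed from -5.41 to -3.86, and PVR, a related ligand, stayed with H211 and narrowed from 2.76 to 1.98. CXCL11, an interferon-induced chemokine, was at 12.2, 10.2 and 9.44 in treated H82 and 0.159, 0.0396 and 0.142 in treated H211 (-3.38). Its change was not called in the full fit. It passed at a pseudocount of 5 (-0.384, adjusted p = 0.0152) and with quantile normalization (-0.565, adjusted p = 0.0317). HLA-DQB1, a class II chain, was higher in treated H82 (-4.39) as in controls (-4.56). Of 8 tested class II genes 1 narrowed and 1 widened, against 17% and 13% of all tested genes.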

How the data were processed

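RNA sequencing of 12 libraries (2 lines, with or without ORY-1001, 3 libraries each) was analysed from 1 deposited table. Its values are a TPM-like signal that the authors deposited, apparently rescaled between libraries, because the totals of its columns lay between 967415 and 1111988 rather than being equal. Log-scale tests planned for plain TPM were kept. Read counts were not analysed here, so depth is unknown and no counting interval can be given. The tools were R 4.0.4, sleuth 0.30.0, Salmon 1.1.0, DESeq2, featureCounts, Subread 1.5.2, STAR 2.5.2b and Trimmomatic 0.36 on hg38, per the submitters' processing notes; their roles and the annotation release are not given in the sources used here.

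One model with 4 group means was fitted to log2(TPM + 1) of the 12 libraries (limma 3.58.1, R 4.3.3, eBayes, trended prior). Tests were two-sided, and p-values were adjusted by Benjamini and Hochberg's method over all 15456 genes at 1 or more in at least 3 libraries, and were called at an adjusted p under 0.05. The fit was also tested on simulated data. Groups and replicate numbers came from the labels. The labels state no design, so the replicate number was not used as a block in the main fit. In a separate check, same-numbered libraries did not deviate together (0 of 18 correlations above 0.1). Symbols that had become dates, 27 in all and 21 tested, were not named. A few genes that enter the fit and the list counts are not reported here.

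The members, the 34 gene lists and the naming rule were chosen with earlier results of these data known. The rule took the 10 largest differences each way between treated lines, the 8 narrowed, 8 widened and 6 reversed genes with the largest change, a list of genes of interest, and from each list up to 3 members by treated difference and 2 by the p of the change. It gave 171 genes, and 62 more, mostly further members of the lists, were chosen after their values were seen: among them CHGA, SCG3, CPE, STMN2, SEZ6, TRPM5, GNAT3, HLA-E, HLA-F, IFITM3, JUNB, FOSB, EGR2, DUSP1 and the single enzymes of sterol synthesis and glycolysis. Alternatives changed the pseudocount, filter, scaling, variance prior, weights, block and libraries.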

Additional observations from a re-analysis of the deposited data

Results flagged for a closer look

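The line difference itself differed between the treated and the control libraries, by the interaction test, for 4956 genes, which is the subject of the report: 2628 narrowed, 2012 widened and 308 reversed. All values below are changes of the H211 minus H82 difference (log2), treated minus control, each called by limma at an adjusted p under 0.05.

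Among the largest narrowings, the change was 4.13 for NSG1, 3.38 for PRSS56, 2.84 for CPLX3, 2.66 for CHRM4, 2.50 for CLIP3 and 2.47 for CPLX1, all higher in H82 controls. It was -2.68 for RAB17 and -2.45 for SPIB, both higher in H211 controls. Toward H211 the largest widenings were 4.95 for EGR1, 3.74 for PSMB9, 3.63 for DCN, 3.54 for JUN and 3.51 for NPY. Toward H82 they were -4.42 for MPO, -3.73 for SRGN and -3.45 for DDIT4. For MPO and SRGN the sign of the line difference changed, as H211 had the higher mean in controls, without a call. Reversals reached 3.60 for APOE, 2.97 for FEZ1 and 2.17 for LARP6, and -3.33 for CXCR4 and -3.24 for BHLHE40.

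Of the other genes of interest, the change was -2.15 for TAP2, 0.45 for TAP1, 1.98 for PSMB8, 1.06 for HLA-C and 0.75 for NLRC5 in antigen presentation. Among subtype and regulatory genes it was 0.69 for INSM1, 0.90 for GFI1B, 1.76 for YAP1, 0.57 for MYC, -0.42 for MYCL, 0.49 for DLL3, -0.96 for SLFN11, 2.37 for VIM and 1.17 for NCAM1.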

How the results depend on the processing

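The counts called between treated lines, between controls, in both conditions and reversed stayed within 1.5 times their main values under every alternative run. Genes at least 2-fold apart between treated lines numbered 2928 at a pseudocount of 5 and 3278 when each line had to reach 1 in 3 libraries, the latter by testing fewer genes. Without the 4 libraries that differ in blood transcripts, 3038 genes were called by the interaction, 1570 narrowed and 1234 widened, with fewer libraries in the fit and 1 H211 control, assumed to vary like the other groups. Leaving out single libraries, 2308 to 2463 genes narrowed, 1751 to 1879 widened and 269 to 302 reversed, and the change in line distance was -0.0632 to -0.0486. By the median absolute difference that change was -0.0211 and did not pass (exact permutation p = 0.055). With the replicate number as a block, 2495 genes narrowed, 1900 widened and 297 reversed. Same-numbered libraries did not deviate together (correlations -0.0805 to 0.058), and 0 of 12 libraries correlated best with their own number throughout.

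Totals without mitochondrial genes moved the median line difference to 0.104 between treated and 0.144 between control libraries, and H211 then held 54.8% of the treated calls against 49.4%. Of 11267 values of the 233 named genes under alternatives, 10936 kept their direction and side of the threshold, 247 lost the call, 75 gained one and 9 changed sign. Those 9 were the changes of TAP1 (-0.92), NLRC5 (-0.79) and IFIH1 (-1.41) at a pseudocount of 0.1 and of JAG2 (-0.24) at a pseudocount of 5, the treated difference of CYP51A1 (0.024) with totals without mitochondrial genes, and, without the 4 libraries, the changes of HBG1 (3.16), HBA1 (2.66) and HBA2 (1.81) and the treated difference of HBA2 (1.58). The cause of these differences was not tested. Depth is unknown, so precision at low levels cannot be given.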
